A study of Mus musculus with 2 samples.

Results

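Osteoblast-like cells were examined in single-cell RNA sequencing of mouse bone. They were chosen from deposited values of 18 genes in 6 sets of 3. A cell was taken when the mean value of Ifitm5, Dmp1 and Bglap2 was strictly the highest of the 6 sets and at least 2 of these 3 genes were above 0. The rule kept 257 of 4976 cells. These were 149 of the 2488 Veh cells (5.99%, exact binomial 95% interval 5.09 to 6.99) and 108 of the 2488 Doxo cells (4.34%, interval 3.57 to 5.22). Digestion and sorting of the bone can set these shares, so they are given as counts of cells recovered and not as counts of cells in bone.

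The samples were bone-resident cells of femurs and tibias from female mice aged 12 weeks, taken 96 h after vehicle (Veh) or doxorubicin at 10 mg/kg (Doxo). Doxorubicin is an anthracycline used as chemotherapy. Fragments of bone were digested with collagenase, red blood cells were lysed, cells bearing CD45, CD71 or Ter119 and, by the labels but not by the study's methods, CD31 were depleted, and the rest were profiled with droplet-based 3′ libraries, 1 library for each condition. The labels give neither a strain nor the number of mice behind a library. With 1 library for each condition no test was made, and the 95% intervals printed below take in the error of counting alone. Differences between the mice, the digestions and the libraries cannot be told apart from the treatment.

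Osteoblasts build bone. They fold and hydroxylate type I collagen with dedicated enzymes of the endoplasmic reticulum, secrete it, and deposit proteins that bind mineral, among them osteocalcin, bone sialoprotein and osteonectin. Runx2 and Sp7 are the transcription factors that commit cells to this lineage, WNT and BMP signals drive it, and some osteoblasts become osteocytes, which are enclosed in mineral and express Dmp1, Phex and Sost.

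Ifitm5 (chromosome 7, 140948958 to 140950291, GRCm38) encodes a small membrane protein found mainly in osteoblasts, Dmp1 (chromosome 5, 104202613 to 104214102) encodes dentin matrix protein, an acidic protein of young osteocytes, and Bglap2 (chromosome 3, 88377736 to 88378699) encodes osteocalcin. Both Bglap2 and Ifitm5 but not Dmp1 were above 0 in 85 Veh and 57 Doxo members. Bglap2 and Dmp1 without Ifitm5 were above 0 in 36 and 23 members, and all 3 genes in 27 and 28. Only 1 Veh member lacked Bglap2. The margin over the next set had a median of 3.64 in Veh and 3.75 in Doxo, in units of the deposited log2 values. The margin was under 1 in 11 and 9 members, and the smallest was 0.050 in Veh and 0.054 in Doxo. The closest cells outside the rule were level with another set, or below it by 0.020 in Veh and 0.032 in Doxo. A further 113 Veh and 76 Doxo cells had the osteoblast set highest with a single gene of it above 0. Their level of Bglap, as summed UMIs per 1000000 (CPM), was 11107 and 11431, below the 76484 and 70865 of the members. Bglap2 was at 7462 and 4524 CPM in these cells, Col1a1 at 23108 and 18643 and Ibsp at 8329 and 2767, each lower in Doxo.

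The label was set beside 6 markers of osteoblasts, Ifitm5, Dmp1, Bglap, Bglap2, Col1a1 and Entpd3. The rule used 3 of them (Ifitm5, Dmp1 and Bglap2), and Bglap is close in sequence to Bglap2, so it is not an independent marker. All 6 were at least 2 log2 units above the other cells in both libraries, with a median of 6.13 in Veh and 6.94 in Doxo. For comparison, 61 of the 1149 genes with enough UMIs in both libraries were that far above the other cells (5.31%) and 10 were that far below (0.87%). Since the cells were chosen from the same values, these are descriptions. A UMI of Bglap was found in 99.3% of the Veh and 97.2% of the Doxo members, but also in 72.0% and 76.5% of the other cells. It was found in 71.9% and 72.9% of cells of the endothelial set (Cdh5, Emcn and Kdr), which should lack it, with median depths of 6474 and 4678 UMIs against 3830 and 3999 in the members. A single UMI of osteocalcin was therefore read as background, and levels are given below. Ifitm5, on which the rule chose cells, was found in 75.8% and 78.7% of members and in 1.97% of the other cells of each library.

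The members were shallow cells. They held 755409 UMIs in Veh and 576704 in Doxo, with a median of 1155 and 1192 genes per cell, and the other cells had median depths of 9056 and 7491 UMIs. Mitochondrially encoded RNA took a median of 2.10% of the UMIs of a Veh member and 4.52% of a Doxo member, against 2.54% and 3.24% in other cells. The largest Veh member held 49803 UMIs, or 6.59% of all UMIs of the Veh members. It lay nearest the threshold, with the Acan, Col9a1 and Matn3 set of chondrocytes almost as high, and it held 105 of the 329 Dmp1 UMIs. The largest Doxo member held 23688 UMIs (4.11%). Genes of another set (2 or more of the 3) were found in 13 Veh and 12 Doxo members, and no doublet caller was run. The libraries share 4 cell barcodes.

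Markers of other cell types were less abundant in the members than in the other cells for most lists, and they were not absent. The rule asked that the osteoblast set be higher than the 5 other sets. Lower levels of the genes of those sets, such as Fmod, follow in part from that choice and are descriptions. The summed level of 8 markers of Cxcl12-abundant reticular (CAR) cells was 150 CPM in Veh and 177 in Doxo, against 4510 and 8095 in the other cells. For 9 chondrocyte markers it was 2744 and 2202, against 8889 and 5792. For 7 markers of bone and cartilage fibroblasts it was 13103 and 14111, against 28466 and 33649, and most of this was Prg4, the joint lubricant, at 11038 and 10284. Of the 6 fibroblast markers counted, 4 were higher in Doxo members and 2 lower, with 3 past a log2 ratio of 1 (2.98% of all genes) and a median of 0.70, against -0.31 in the other cells. The 3 were Chad (1080 and 2710 CPM, in 47 and 42 cells), Fmod (64.9 and 134) and Cilp2 (25.1 and 60.7). A single cell held 52.2% of the Veh UMIs of Chad, and the part of fibroblast RNA in the changes between Doxo and Veh members was not tested. The 6 markers of arteriolar and endosteal fibroblasts were at 15.9 and 127, and 96.2% of the 52 Doxo UMIs of Apod, the most abundant of them in Doxo, came from 1 cell. Endothelial markers were at 13.2 and 43.3, those of pericytes and smooth muscle at 27.8 and 32.9, and those of skeletal muscle at 19.9 and 0. Of the osteoclast markers, Ctsk was at 139 and 74.6 CPM, Acp5 had 6 UMIs in Veh and 0 in Doxo, and the other 6 listed were at 0 in both libraries.

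Bone matrix genes took a large share of the RNA in most of these cells. The list of 24 bone matrix genes took a median of 25.1% of the UMIs of a Veh member (range 0.063 to 57.6%) and 27.0% of a Doxo member (0.894 to 59.4%). In cells of the chondrocyte set the medians were 10.1% and 7.93%, and in those of the CAR set (Cxcl12, Adipoq and Lepr) 1.56% and 1.25%. The 3 osteocalcin genes alone took a median of 7.16% in Veh and 8.48% in Doxo, with a range from 0.018 to 39.6% and from 0.0079 to 43.0%. Col1a1, which encodes the major chain of type I collagen, took a median of 6.72% and 7.51%. The members were thus far from alike, and the ranges of the libraries overlapped over almost their whole length. Some deep members held very little of either product. In a Veh member of 15874 UMIs the osteocalcin genes took 0.019% and Col1a1 and Col1a2 0.0063%. In a Doxo member of 12619 UMIs these were 0.0079% and 0.016%. The median osteocalcin share in cells of the CAR set was 0.025% and 0.028%. Whether such members were osteoblasts was not tested.

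**Figure D1:**
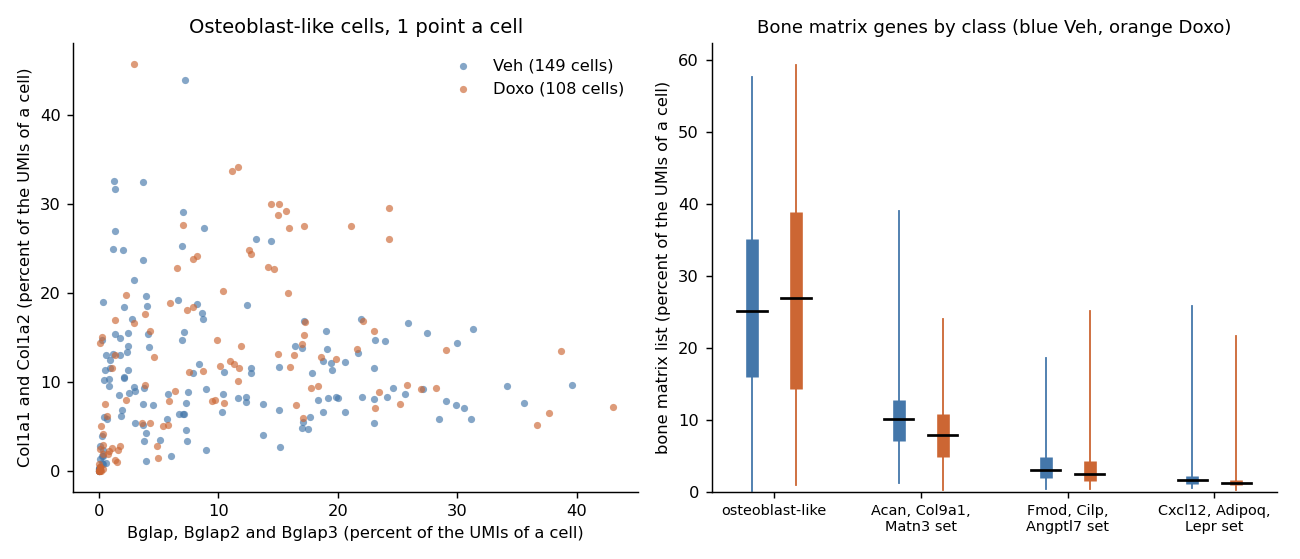
Left, the share of the UMIs of each osteoblast-like cell taken by the 3 osteocalcin genes (x axis) and by Col1a1 and Col1a2 (y axis), in percent, with 149 Veh cells in blue and 108 Doxo cells in orange. Right, the share taken by 24 bone matrix genes, with the median as a black line, quartiles as a thick bar and the lowest and highest cell as a thin line: medians of the osteoblast-like cells were 25.1% and 27.0%, above those of the 3 other sets drawn.

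Apart from the 18 genes of the rule, 15 genes stood furthest above the other cells in both libraries. Bglap, the main osteocalcin gene, was at 76484 CPM in Veh and 70865 in Doxo, against 1236 and 704 in the other cells. Entpd3, an enzyme that splits extracellular nucleotides, was at 146 and 182, against 2.07 and 1.48. The plot of these genes shows filled points of the members far to the right of the open points of the other cells for all 14 drawn.

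**Figure D2:**
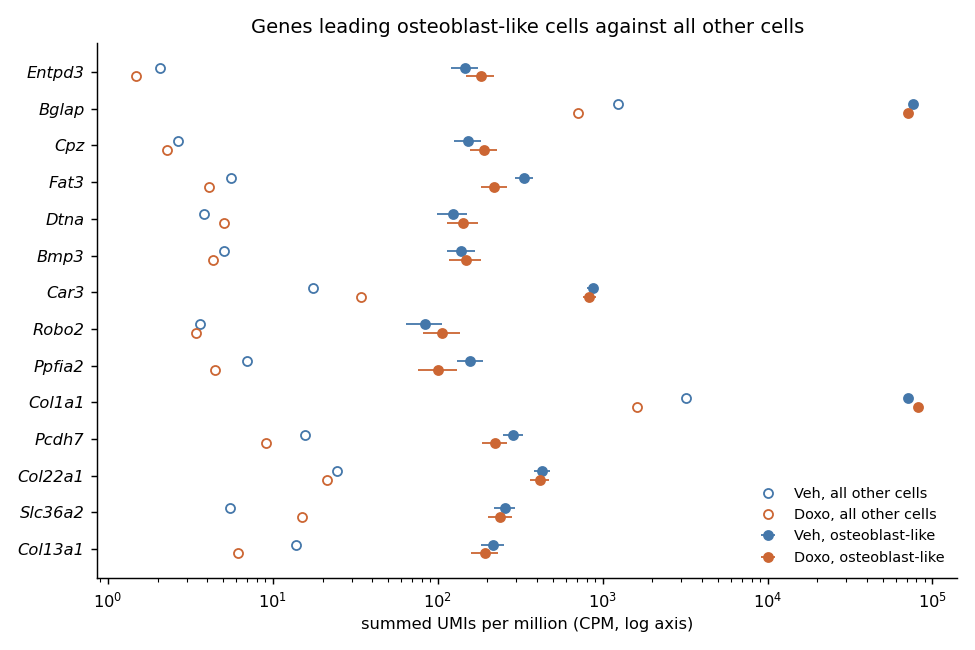
Summed CPM (log axis) of 14 of the leading genes in osteoblast-like cells (filled points, with exact Poisson 95% intervals) and in all other cells (open points), Veh in blue and Doxo in orange. Entpd3 stood at 146 and 182 CPM in osteoblast-like cells and at 2.07 and 1.48 in the others.

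Among the same 15 were 3 collagens, Col1a1, Col13a1 and Col22a1, of which Col13a1 is a transmembrane and Col22a1 a fibril-associated chain. Col22a1 was at 429 CPM in Veh and 414 in Doxo, and Col13a1 at 216 and 192. Bmp3, a BMP family member that restrains bone formation, was at 139 and 147. Surface proteins included the atypical cadherin Fat3 (335 and 220), the protocadherin Pcdh7 (286 and 222) and Robo2, a receptor for SLIT guidance cues (83.4 and 106). Slc36a2, a transporter of proline and glycine, the amino acids that collagen is richest in, was at 254 and 239. Car3, a carbonic anhydrase, was at 870 and 827. Cpz, Dtna and Ppfia2 were at 101 to 191 CPM. Of the gene lists, 9 of 19 bone matrix genes, 5 of 9 mineralization genes, all 3 osteocyte genes, 2 of 6 transcription factors and 2 of 19 collagen modification genes with enough UMIs stood at least 2 log2 units above the other cells in both libraries. The share over all 1149 genes was 5.31%. These counts take in genes of the rule, such as Bglap2 in the bone matrix list and Dmp1 in the osteocyte list. The choice of cells placed those genes high, so the counts are descriptions.

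The Doxo and Veh members were compared over 2848 genes with at least 50 UMIs in the 2 libraries' members together. The log2 ratio of Doxo to Veh was above 0 for 1389 genes and below 0 for 1459. It was at least 1 for 85 genes (2.98%) and at most -1 for 96 (3.37%). The interval of the ratio lay above 0 for 352 genes (12.4%) and below 0 for 402 (14.1%). Below, a gene is past the fold when its log2 ratio was at least 1 in size, and higher or lower otherwise give only the side of 0.

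Type I collagen, osteonectin and bone sialoprotein were at slightly higher levels in Doxo members, whereas the 5 type V, XI and XXIV collagen genes of the bone matrix list were at lower levels. Col1a1 was at 70637 CPM in Veh and 81401 in Doxo, so that the log2 ratio was 0.20, with an interval from 0.19 to 0.22. Col1a2 was at 30858 and 38399, with a ratio of 0.32 (0.29 to 0.34). These genes were found in nearly every member. Sparc, or osteonectin, was at 19792 and 22911 (0.21), and Ibsp, bone sialoprotein, was at 5431 and 8073 (0.57, interval 0.51 to 0.63). When only members with all 3 genes of the rule were kept, the ratio of Ibsp was -0.020. Bgn, the small proteoglycan biglycan, was at 1129 and 1731 (0.62). The higher Col1a1 and Ibsp hold for the members as the rule chose them. In the cells left out for having a single osteoblast gene above 0, Col1a1 (23108 and 18643 CPM) and Ibsp (8329 and 2767) were lower in Doxo.

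In the other cells of the same libraries Col1a1 went the other way, at 3213 CPM in Veh and 1604 in Doxo. So did the summed levels of Col1a2 (log2 ratio -0.44), Sparc (-0.40) and Ibsp (-0.58). The classes of other cells were not alike. Ibsp was higher in Doxo in the Fmod, Cilp and Angptl7 set (1791 and 2274 CPM), as in the members. It was lower in every other class, such as the CAR set (5482 and 1604) and the chondrocyte set (6319 and 3317). Col1a2 was higher in Doxo in the endothelial set only (256 and 401), and Col1a1 was lower in every class. The difference between the members and the other cells was not tested.

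These collagens, of which types V and XI join the fibrils of other collagens, were measured as follows. Col11a1 was at 4272 CPM in Veh and 3107 in Doxo (log2 ratio -0.46, -0.54 to -0.38), and Col11a2 at 3647 and 2858 (-0.35). Col5a2 was at 2024 and 1635 (-0.31). Col5a1 was at 508 and 392 (-0.37), but at 0.21 among members with all 3 genes of the rule. Col24a1, a fibrillar collagen of bone, was at 163 and 95.4 (-0.76, -1.26 to -0.30), in 55 Veh and 33 Doxo cells. None of the 5 passed a log2 ratio of 1. Col27a1, a fibrillar collagen outside the list and looked at after its values were seen, was at 82.1 and 111 (0.43, -0.092 to 0.96). Each of the 5 was lower in the other cells of the Doxo library as well, with ratios from -0.85 to -0.25.

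Of the 24 bone matrix genes, 21 were counted often enough. Of these 7 were higher in Doxo and 14 lower, with 1 past the fold in each direction and a median log2 ratio of -0.16, against -0.015 over all 2848 genes and -0.58 for the same list in the other cells. When every cell weighed the same the median was 0.036. The gene past the fold upward was Omd, osteomodulin, a keratan sulfate proteoglycan of mineralized tissue (184 and 451 CPM, 1.29), found in 38 Veh and 31 Doxo cells, with a ratio of 0.39 among members with all 3 genes of the rule. The gene past the fold downward was Bglap3.

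Bglap3 lies beside its close relatives Bglap and Bglap2 on the minus strand of chromosome 3 (88368616 to 88372743, GRCm38), and the protein it encodes is called osteocalcin-related protein. Bglap was at 76484 CPM in Veh and 70865 in Doxo (log2 ratio -0.11), and Bglap2 at 34227 and 30773 (-0.15). With every cell weighing the same, these 2 ratios were 0.063 and 0.036. Bglap3 was at 1222 and 55.5 CPM (-4.44, -5.02 to -3.95), from 923 UMIs in 121 of 149 Veh cells and 32 UMIs in 24 of 108 Doxo cells. Across 13 alternative settings the ratio of Bglap3 lay between -4.60 and -4.27.

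Bglap3 was also low in the rest of the Doxo library. In all other cells it was at 25.2 CPM in Veh and 0.594 in Doxo (log2 ratio -5.35). As a share of the summed UMIs of Bglap and Bglap3, Bglap3 made up 1.57% in the Veh members (interval 1.47 to 1.68) and 2.00% in the other Veh cells (1.84 to 2.16). In Doxo it made up 0.078% in the members (0.054 to 0.110) and 0.084% in the other cells (0.044 to 0.147). It was lower in Doxo in every class, as the plot of osteocalcin genes shows. The share of Bglap2 in the summed UMIs of Bglap and Bglap2 was 30.9% in Veh and 30.3% in Doxo members.

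**Figure D3:**
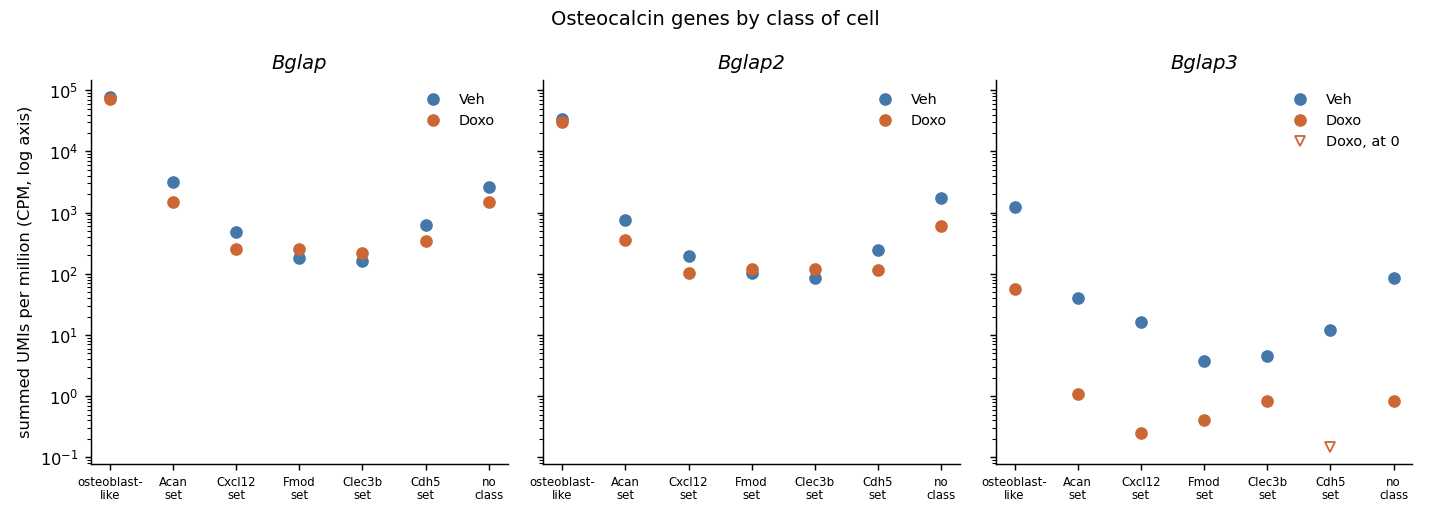
Summed CPM (log axis) of Bglap, Bglap2 and Bglap3 in osteoblast-like cells, in cells of the 5 other sets and in cells without a class, Veh in blue and Doxo in orange, with an open triangle for a sum of 0. Bglap and Bglap2 of the osteoblast-like cells lay close together in both libraries, while Bglap3 was at 1222 in Veh and 55.5 in Doxo and was lower in Doxo in every class.

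Reads at the 3′ end can be hard to assign within this family. The first-numbered transcripts of Bglap (440 bases) and Bglap2 (471 bases) in GENCODE M21 share 92.6% of aligned bases and an unbroken run of 241 bases, so the split between Bglap and Bglap2 is uncertain. That of Bglap3 (717 bases) shares a run of at most 81 bases with Bglap and 119 with Bglap2, so its counts are uncertain as well. The promoter windows of the 2 genes with an entry in RefSeq are shown because these neighbours differed so much between the libraries. Each runs from 250 bases before to 50 bases after the start, on the minus strand of chromosome 3 in GRCm38.p6, and is printed 5′ to 3′. Capitals mark ACCACA, the core bound by RUNX factors, and TATAAA, each searched on both strands. Bglap is at chr3:88384417-88384716, and the window of Bglap3 most like it, of 3 listed starts, is at chr3:88372692-88372991 (52.8% identity).
Bglap: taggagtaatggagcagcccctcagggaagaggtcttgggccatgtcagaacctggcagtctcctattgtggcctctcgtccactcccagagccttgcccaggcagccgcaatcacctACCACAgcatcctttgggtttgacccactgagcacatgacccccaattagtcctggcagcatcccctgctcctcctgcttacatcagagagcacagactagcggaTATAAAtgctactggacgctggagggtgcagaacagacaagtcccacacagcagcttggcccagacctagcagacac
Bglap3: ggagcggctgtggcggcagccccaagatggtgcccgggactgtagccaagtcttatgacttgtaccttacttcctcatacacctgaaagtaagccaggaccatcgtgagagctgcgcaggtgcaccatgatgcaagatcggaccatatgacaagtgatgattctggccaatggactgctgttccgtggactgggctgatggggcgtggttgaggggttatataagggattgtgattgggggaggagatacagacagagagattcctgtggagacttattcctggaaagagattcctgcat

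The Bglap window held 1 match to each motif and the Bglap3 windows held none. Of all 32851 promoter windows in the table, 16.8% held ACCACA and 13.6% held TATAAA on either strand. A window was listed for 8 of the 15 leading genes. ACCACA was in 1 of these windows, that of Bglap, and TATAAA in 2, those of Bglap and Col13a1. These are descriptions of letters in short windows, and a missing match says nothing about the factors.

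Genes that modify, fold and export collagen were higher in the Doxo members as a list. Of 33 genes, 27 were counted, 21 were higher and 6 lower, 8 had an interval above 0 and none had one below 0. Over all 2848 genes 1389 were higher and 1459 lower, with an interval above 0 for 12.4% and below 0 for 14.1%. The median log2 ratio of the list was 0.27, against -0.015 over all genes and -0.13 for the same list in the other cells. Across the alternatives the median stayed between 0.20 and 0.42. Only Colgalt1, which adds galactose to collagen, passed the fold (29.1 and 65.9 CPM, 1.16, interval 0.38 to 2.01), with ratios from 0.69 to 1.72 across the alternatives.

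Several of these genes were measured well. Serpinh1, the collagen chaperone HSP47, was at 635 CPM in Veh and 848 in Doxo (log2 ratio 0.42, 0.23 to 0.60). Pcolce, which enhances removal of the C-terminal propeptide, was at 249 and 420 (0.75, 0.47 to 1.04), and Adamts2, which removes the N-terminal propeptide, at 158 and 222 (0.49). Ppib, a prolyl isomerase of the same compartment, was at 425 and 541 (0.35), and P4hb, a subunit of prolyl 4-hydroxylase, at 255 and 342 (0.42). Kdelr2, which returns chaperones to the endoplasmic reticulum, was at 201 and 283 (0.49). Cthrc1, a secreted collagen triple helix repeat protein, was at 113 and 182 (0.69). In the other cells Serpinh1 (-0.19), Pcolce (-0.40), Adamts2 (-0.11), Ppib (-0.16) and Cthrc1 (-0.89) were on the other side of 0.

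The general folding and stress genes of the endoplasmic reticulum were close to level as a list. Of 32, 17 were counted, 9 higher and 8 lower, none past the fold, with a median log2 ratio of 0.029. Hspa5, the chaperone BiP, was at 471 and 324 CPM (-0.54, -0.80 to -0.28), and Ppp1r15a, which reverses the stress-induced block of translation, at 132 and 79.8 (-0.72).

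**Figure D4:**
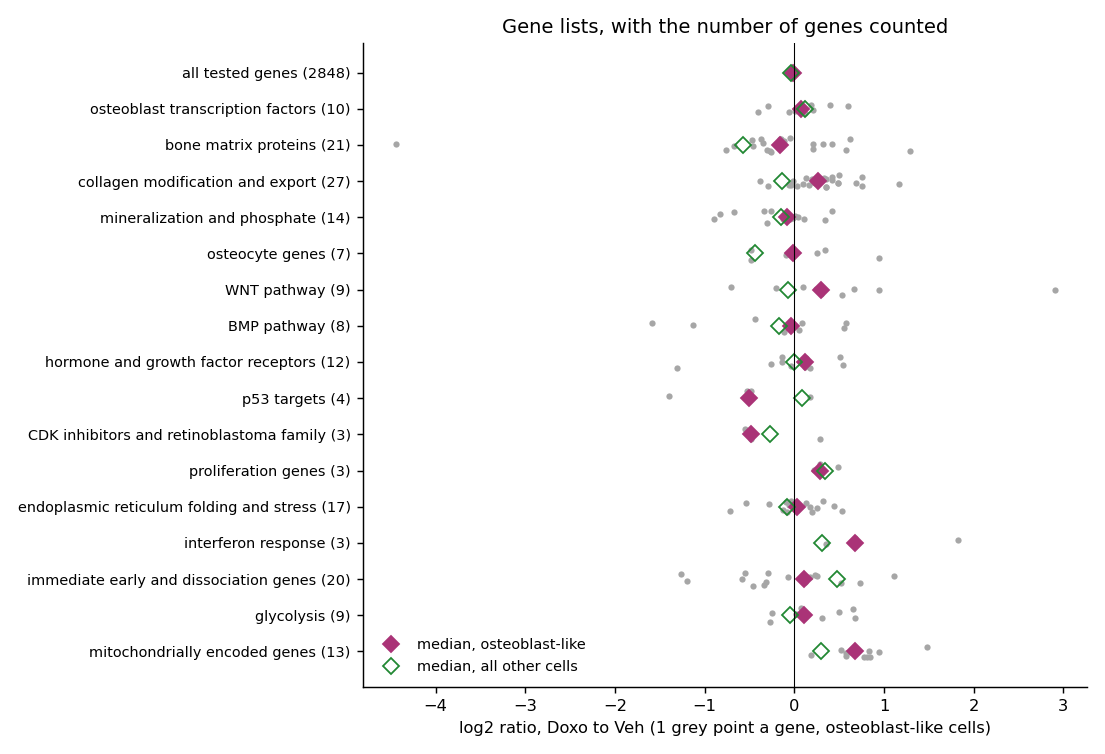
Log2 ratio of Doxo to Veh in osteoblast-like cells for each gene of 16 lists (grey points), with the median in osteoblast-like cells (filled diamond) and in all other cells (open diamond), and the medians of all 2848 genes at the top. The number in brackets counts the genes with at least 50 UMIs. The collagen modification list stood at 0.27 against -0.13 in the other cells, and the immediate early list at 0.11 against 0.47.

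Transcription factors of the osteoblast lineage were close to level. Of 14, 10 were counted, 7 higher and 3 lower, none past the fold, with a median log2 ratio of 0.077. Runx2 was at 147 CPM in Veh and 160 in Doxo (0.12, -0.30 to 0.53), and Mef2c, a regulator of Sost in osteocytes, at 847 and 850 (0.0045). Sp7, or osterix, was at 82.1 and 125 (0.60, 0.095 to 1.12). Creb3l1, which drives secretion of collagen, was at 152 and 201 (0.40, 0.017 to 0.79).

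Mineralization genes showed no common direction. Of 20, 14 were counted, 5 higher and 9 lower, none past the fold, with a median log2 ratio of -0.083. Alpl, the phosphatase that removes an inhibitor of mineral, was at 443 and 430 CPM (-0.044, -0.29 to 0.20). Smpd3, a sphingomyelinase needed for bone mineral, was at 1129 and 1219 (0.11, -0.036 to 0.26). Slc13a5, a citrate transporter, was at 308 and 244 (-0.33), and 0.16 in thinned cells. Ank, which exports pyrophosphate, was at 130 and 69.4 (-0.89), in only 16 Veh and 14 Doxo cells, and Mgp, an inhibitor of calcification, was at 798 and 499 (-0.68), where a single Doxo cell held 44.4% of the Doxo UMIs. Without the cell with most UMIs of Mgp in each library its ratio was -1.16.

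Osteocyte genes differed widely in how many members carried them, with Sost, Fgf23 and Mepe in 3 cells or fewer of a library and Phex in 52 of 149 Veh and 49 of 108 Doxo members. Of 10 genes, 7 were counted, 3 higher and 4 lower, none past the fold, with a median log2 ratio of -0.018. Sost, the WNT inhibitor of mature osteocytes, had 6 UMIs in 1 Veh cell and 1 UMI in 1 Doxo cell, and Fgf23, the phosphate hormone, had none in either. Mepe had 2 UMIs in Veh and 23 in Doxo, 87.0% of the latter in 1 cell. Dmp1, which the rule used, was at 436 and 430 CPM, and its ratio of -0.018 was the median of the list. Phex, an endopeptidase that keeps Fgf23 low, was at 257 and 324 (0.34, 0.039 to 0.63). A single cell held 37.1% of its Veh and 40.1% of its Doxo UMIs, and its ratio was -1.62 among members with all 3 genes of the rule. Spp1, osteopontin, was concentrated in a few cells. The median Veh member had none, while the highest reached 21.8% of its UMIs in Veh and 20.0% in Doxo, so 61.1% of all Veh UMIs and 39.1% of all Doxo UMIs of Spp1 came from 1 cell each. Its summed ratio was 0.42, 1.07 without those cells, and -0.22 without members holding genes of another set.

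Among the WNT genes, Wif1 stood out. Of 24 genes, 9 were counted, 7 higher and 2 lower, with a median log2 ratio of 0.30 and 1 past the fold upward (2.98% of all genes). Wif1, a secreted inhibitor that binds WNT proteins, was at 109 CPM in Veh and 815 in Doxo (2.90, 2.57 to 3.26). It was found in 24 of 149 Veh and 26 of 108 Doxo cells, and 1 cell held 31.7% and 22.8% of the UMIs. Across the alternatives its ratio was 1.65 to 3.73, and it was 3.08 without the cell of most UMIs in each library. In all other cells the ratio of Wif1 was -0.10. It was lower in Doxo in the Fmod, Cilp and Angptl7 set (621 and 548 CPM), the chondrocyte set (540 and 373) and the CAR set (293 and 177). It was higher in cells without a class (500 and 653), in the Clec3b, Col14a1 and Mfap5 set (35.1 and 65.4) and in the endothelial set (7.53 and 65.2). Lrp4, the receptor that binds sclerostin, was at 109 and 65.9 (-0.71, -1.32 to -0.15), with a ratio of -0.67 in the other cells. Dkk1, another inhibitor, had 21 UMIs in Veh and 31 in Doxo, each in 9 cells (0.94, and -1.28 among members with all 3 genes of the rule).

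Of 21 BMP genes, 8 were counted, 4 higher and 4 lower, with 2 past the fold downward (3.37% of all genes) and a median log2 ratio of -0.032. Smad7, which blocks signals of BMP and TGF-β receptors, was at 304 CPM in Veh and 101 in Doxo (-1.59, -2.04 to -1.18), found in 69 of 149 and 33 of 108 cells, and stayed between -1.64 and -1.26 across the alternatives. In the other cells its ratio was -0.42. Smad1, which carries BMP signals to the nucleus, was at 54.3 and 24.3 (-1.13), with ratios from -1.23 to -0.81 across the alternatives. Id3, a target of these signals, was at 530 and 779 (0.56, 0.36 to 0.75), and it was also higher in the other cells (0.41).

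Receptors for hormones and growth factors were mostly level, with 12 of 16 counted, 7 higher, 5 lower and a median log2 ratio of 0.12. Pth1r, the receptor of parathyroid hormone, was at 494 and 541 CPM (0.13, -0.090 to 0.35), and Lifr, the receptor of leukemia inhibitory factor, at 496 and 482 (-0.042).

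Signals to osteoclasts were rare in these cells. Tnfsf11, which encodes RANKL, the cytokine that makes osteoclasts form, had 6 UMIs from 3 cells in Veh and 3 from 2 cells in Doxo, too few to show a difference. Tnfrsf11b, its decoy receptor osteoprotegerin, was at 115 and 187 CPM (0.70, 0.28 to 1.13), in 17 and 16 cells. Csf1 had 49 and 31 UMIs (-0.26), and Il6 had none in Veh and 23 in Doxo, from 2 cells. Of the 9 genes of the list, Tnfrsf11b and Csf1 were the 2 counted (median log2 ratio 0.22).

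Genes of the damage response were counted poorly. Only 4 of 30 targets of p53 had 50 UMIs, 1 higher and 3 lower, with a median log2 ratio of -0.50 (0.082 in the other cells). With a minimum of 20 UMIs the median was -0.078, and with every cell weighing the same it was -0.012. Cdkn1a, which encodes the cell cycle inhibitor p21, was at 402 CPM in Veh and 288 in Doxo (-0.48, -0.77 to -0.21), found in 62 of 149 and 61 of 108 cells. Its ratio was 0.40 when every cell weighed the same and 0.23 without members holding genes of another set, and 20.7% of the Veh UMIs came from 1 cell. Mdm2, the ligase that removes p53, had 53 UMIs from 23 cells in Veh and 15 from 12 cells in Doxo (-1.40, -2.37 to -0.58, and -0.94 without the largest Veh member), and Btg2, which restrains proliferation, was at 458 and 317 (-0.53, and -0.11 without that member). Bax, a pore former of apoptosis, was at 66.2 and 74.6 (0.17, -0.45 to 0.79).

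Cdkn2a, which encodes the senescence marker p16, had 2 UMIs in 2 cells of each library. At this depth no difference in it was detectable. The list of CDK inhibitors and the retinoblastoma family had 3 of 10 genes counted and a median log2 ratio of -0.48, and it was 0.40 with every cell weighing the same. Proliferation genes had 3 of 30 counted, all higher and none past the fold (median 0.28).

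The interferon list had 3 of 34 listed genes counted, all higher, with a median log2 ratio of 0.68, against 0.31 in the other cells. Bst2, or tetherin, which holds budding virus particles at the membrane, had 16 UMIs from 13 cells in Veh and 44 from 24 cells in Doxo (1.82, 0.99 to 2.77), and at 76.3 CPM in the Doxo members it was below the 108 of the other Doxo cells. Ifi27 was at 64.9 and 104 CPM (0.68), and -0.26 in thinned cells, and Ifitm3, an antiviral relative of Ifitm5, at 171 and 218 (0.36, -0.010 to 0.72). Of 16 genes of glycolysis, 9 were counted, 7 higher and 2 lower, none past the fold (median 0.11).

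Immediate early genes, which cells switch on within minutes of a stimulus and also during digestion of tissue, were all counted. Of the 20 genes, 11 were higher and 9 lower in the Doxo members, with a median log2 ratio of 0.11. Past the fold were 1 upward and 2 downward, against 2.98% and 3.37% of all genes. In the other cells the median was 0.47. With every cell weighing the same the median of the members was -0.26, and in cells thinned to 2000 UMIs it was -0.34. Atf3, a stress-induced factor, was at 506 CPM in Veh and 220 in Doxo (-1.20, -1.50 to -0.91), in 65 and 33 cells. In the other cells its ratio was 0.47, and across the alternatives that of the members ranged from -1.83 to -0.89. Jun was at 1496 and 1021 (-0.55, 0.29 in the other cells), and 0.57 among members with all 3 genes of the rule. Ier2 (-0.47) and Fosb (-0.31) were also lower, against 0.48 and 0.55 in the other cells. The classes of other cells were not alike. In the CAR set Atf3 (325 and 162 CPM) and Jun (2865 and 2126) were lower in Doxo, as in the members. Both were higher in the chondrocyte set (591 and 1243, 1268 and 2306) and in the Fmod, Cilp and Angptl7 set (435 and 625, 1072 and 1457).

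Klf6, the other gene past the fold downward, was at 222 and 91.9 (-1.27, against -0.14 in the other cells, and -1.64 to -0.98 across the alternatives). Others were higher in Doxo. Nr4a1, an orphan nuclear receptor that parathyroid hormone induces in osteoblasts, was at 80.8 and 175 (1.11, 0.64 to 1.60, and 0.84 to 1.46 across the alternatives), and Klf4 at 466 and 773 (0.73). Fos was at 2197 and 2382 CPM (0.12) and Egr1 at 916 and 1072 (0.23). Both of these ratios turned below 0 with every cell weighing the same, at -0.17 and -0.27.

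All 13 mitochondrially encoded genes were higher in the Doxo members, each with an interval above 0 (12.4% of all genes), and 1 was past the fold (2.98% of all genes). Their median log2 ratio was 0.68, against 0.29 in the other cells, and it stayed between 0.58 and 0.77 across the alternatives. mt-Nd3 was at 442 CPM in Veh and 1233 in Doxo (1.48, 1.29 to 1.67), mt-Co3 at 4861 and 8739 (0.85) and mt-Atp6 at 5266 and 9412 (0.84). The lowest ratio was that of mt-Nd2 (0.19). These genes encode subunits of the respiratory chain and the ATP synthase, and their share also moves with the quality of cells. The part of cell quality in the result was not tested.

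The genes with the highest and lowest ratios were then listed, leaving out those that were more than 2 times as abundant in the other cells. Several of those with the highest ratios came from few cells. Chil1 had 147 UMIs in Doxo against 4 in Veh (5.42), but 81.6% of them in 1 cell, and a ratio of 3.36 without it. Myoc, myocilin, had 17 UMIs from 7 cells in Veh and 466 from 20 cells in Doxo (5.13). Cytl1, a cytokine-like protein of cartilage, had 1241 and 3320 UMIs (1.81), and 1 Veh cell held 72.8% of the Veh UMIs, without which, and without the top Doxo cell, the ratio was 3.15. Fxyd3 (2.76), Crispld1 (2.03, and -0.12 among members with all 3 genes of the rule) and Cox4i2 (1.74) were found in 4 to 12 cells of a library, and in thinned cells the ratio of Cox4i2 was 0.56. Myoc, Chil1, Cytl1, Crispld1, Cox4i2 and Bst2 were less abundant in the Doxo members than in the other Doxo cells, and the part of RNA from other cells was not tested.

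Cytl1 was found in 64 Veh and 73 Doxo members, and Bst2, Wif1, Maged2 and Tsix in 24 to 41 Doxo members. Maged2 had 22 UMIs from 15 cells in Veh and 59 from 32 cells in Doxo (1.79, 1.08 to 2.59), with a ratio of -0.079 in the other cells. Tsix had 27 UMIs in 21 cells and 72 UMIs in 41 cells (1.79), with a similar ratio in the other cells (1.58). Tsix is antisense to Xist, so its reads depend on how strand was counted.

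At the lower end, RNA of red blood cells was low in the Doxo library. Hbb-bs, a β-globin gene, had 159 UMIs in 80 Veh cells and 1 UMI in Doxo (-6.34). Hba-a1 had 56 and 0 UMIs and Hbb-bt 55 and 0. Against a floor of 3 UMIs, these were at least 14.3-fold and 14.0-fold lower in Doxo. The globin copies are near identical, so reads can be split between them. The ratio of Hbb-bs in the other cells was -7.54, and 12 blood cell markers together were at 543 CPM in Veh and 102 in Doxo members, against 1021 and 85.4 in other cells. S100a8, a neutrophil gene, was close to level in the members, with 32 and 27 UMIs (0.15), against -2.88 in the other cells. It was close to level in the chondrocyte set too (89 and 60 UMIs, -0.0032). In the CAR set its ratio was -3.21, and in the Fmod, Cilp and Angptl7 set -3.68.

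Gm42418, a locus on chromosome 17 that overlaps ribosomal RNA sequence, also differed between the libraries. It took 6.27% of all UMIs of the Veh members (47388 UMIs) and 1.21% of the Doxo members (6973 UMIs), a log2 ratio of -2.38, and was found in every member. In the other cells its ratio was -1.36. Since a gene of this size moves the scale of all others, ratios were computed again without Gm42418, mitochondrial genes and blood markers in the sum, and the median of no list moved beyond its counting error. Hist1h1e, a linker histone, had 70 UMIs in 32 cells and 9 UMIs in 9 cells (-2.50), with a ratio of -1.73 in the other cells.

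Most of the remaining low genes rested on few cells. Ptgs2, the inducible cyclooxygenase, had 80 and 10 UMIs (-2.55), but 97.5% of the Veh UMIs came from the largest member, and without that cell its ratio was 2.36. Ddit4l had 71 and 9 UMIs (-2.52), with 81.7% of the Veh UMIs in 1 cell, and without the largest Veh member its ratio was -0.22. Crispld2 (71 and 3 UMIs, -3.96) and Fgl2 (111 and 13 UMIs, -2.66) were found in at most 7 cells of a library, and in thinned cells the ratio of Fgl2 was -0.47. Inhba, a subunit of activin, had 47 and 12 UMIs (-1.54, against 0.48 in the other cells), and 0.66 with every cell weighing the same. Mrps6, a protein of the mitochondrial ribosome, was spread more widely, with 38 UMIs from 25 cells in Veh and 12 from 11 cells in Doxo (-1.23, against 0.68 in the other cells, and -1.44 to -0.89 across the alternatives).

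**Figure D5:**
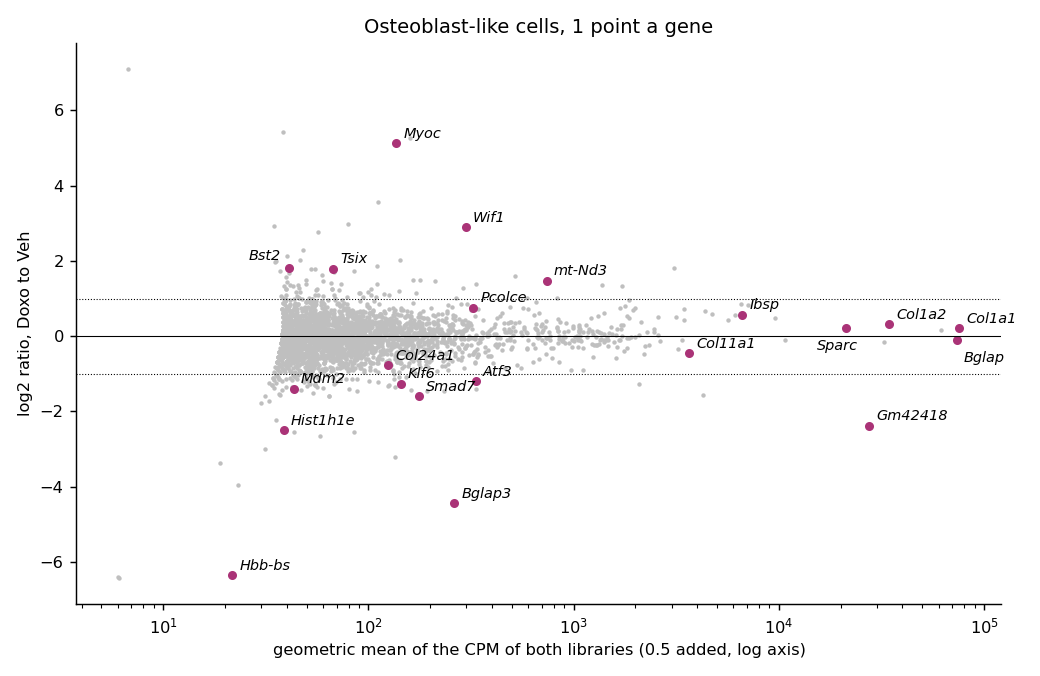
Log2 ratio of Doxo to Veh (y axis) against the geometric mean of the level in both libraries (CPM with 0.5 added, log axis) for 2848 genes of osteoblast-like cells, with named genes in purple and dotted lines at a log2 ratio of 1 and -1. The most abundant matrix genes (Bglap, Col1a1, Col1a2, Sparc) lay near 0, while Bglap3 lay at -4.44 and Gm42418 at -2.38.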

How the data were processed

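Droplet-based 3′ sequencing gave 1 Veh and 1 Doxo library of 2488 cells each, with 24859695 and 20792012 UMIs (unique molecular identifiers, which count RNA molecules). The submitters' notes name Cell Ranger, Partek, GRCm38 and mm10. The authors deposited each gene in each cell on a log2 scale. The values sum, after the log is undone, to 1000000 in each cell, and themselves derive from the log of scaled counts. Both steps were inverted in each cell, and 99.9% of the nonzero values came out as whole UMIs within 0.05. The 27 gene symbols that did not were left out of results for single genes. Depth recovered in this way was the basis of all intervals.

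UMIs were summed over members of a library and given per 1000000 (CPM). Log2 ratios of Doxo to Veh had 0.5 UMI added to each sum and exact conditional binomial intervals, levels had exact Poisson intervals, and shares exact binomial ones, all at 95%. Genes needed 50 UMIs over both libraries. The calculation was tested on simulated data. Doublets were kept. Some items are not reported here. Genes named were those of the gene lists, the 15 leading against other cells, the 10 highest and 10 lowest ratios of Doxo to Veh whose level in the higher library was at least 0.5 times that of the other cells, and the 5 largest differences from other cells in each direction. Members, lists and the rule for naming genes were chosen with earlier results of these data known. Alternatives changed the membership, the weight and depth of cells, the added UMIs, the minimum of UMIs and the scaling. The software was scipy 1.17.1, numpy 2.4.6 and pandas 2.3.3 under Python 3.11.15, with figures drawn with matplotlib 3.10.9.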

Additional observations from a re-analysis of the deposited data

Results flagged for a closer look

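For 25 named genes the osteoblast-like cells and all other cells moved in opposite directions between Veh and Doxo, with both counting intervals past 0. With 1 library for each condition the difference was not tested. The share of all tested genes that moved in this way is not given, so the count has no background to be read against. The named genes took in the 5 largest differences from other cells in each direction. Wif1, Fxyd3, Inhba and Mrps6 were among these, so they were named in part for this property, and the count is a description. Some genes of matrix and collagen were higher in Doxo members and lower in the other Doxo cells, although the bone matrix list as a whole had 14 of 21 genes lower in the members. The member log2 ratios were 0.20 for Col1a1, 0.32 for Col1a2, 0.21 for Sparc, 0.57 for Ibsp, 1.29 for Omd, 0.35 for Ppib, 0.42 for Serpinh1, 0.75 for Pcolce, 0.69 for Cthrc1, 0.49 for Adamts2 and 0.40 for Creb3l1. The same held for Wif1 (2.90), Ifi27 (0.68), mt-Nd2 (0.19), Fxyd3 (2.76), Crispld1 (2.03) and Cox4i2 (1.74). These directions are those of the summed UMIs of the other cells, and not every class shared them. Crispld1 was higher in Doxo in the CAR set (0.39, 0.18 to 0.62) and the Fmod, Cilp and Angptl7 set (0.23, 0.16 to 0.30). It was lower in the chondrocyte set (-0.47, -0.53 to -0.41). Ibsp was also higher in the Fmod, Cilp and Angptl7 set. Of the immediate early list, of which 11 of 20 genes were higher in the members, 4 genes were lower in Doxo members and higher in the other Doxo cells, with -0.55 for Jun, -0.31 for Fosb, -0.47 for Ier2 and -1.20 for Atf3. The same held for Btg2 (-0.53), Ank (-0.89), Inhba (-1.54) and Mrps6 (-1.23). Inhba was lower in Doxo in the CAR set too (-0.82, -1.24 to -0.40). It was higher in the Fmod, Cilp and Angptl7 set (0.11) and the chondrocyte set (0.59).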

How the results depend on the processing

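Results were recomputed under 13 alternatives, 3 of them chosen after seeing the data. No paired analysis was possible because each condition had 1 library. Bglap3, Smad7, Gm42418, mt-Nd3, Col1a1, Col1a2 and Serpinh1 kept their direction in all 13. The settings of at least 20 and at least 100 UMIs change only which genes are counted. They leave the ratio of a single gene as it was, so they could not alter a direction. The count of genes at least 2 log2 units above other cells was recomputed under 2 alternatives and was 58 to 60, against 61. Counts of genes past the fold (85 higher and 96 lower) were 281 and 315 with at least 20 UMIs, 37 and 34 with at least 100 UMIs, and 27 and 32 in thinned cells, which hold fewer genes with 50 UMIs. With every cell weighing the same 145 were higher.

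Only 27 Veh and 28 Doxo members had all 3 osteoblast genes. Among them 49 genes were higher, and median log2 ratios were 0.25 for the BMP list, -0.017 for bone matrix, 0.42 for collagen modification, -0.025 for immediate early genes, -0.93 for mineralization and -1.37 for osteocyte genes, with Ank at 0.16, Col5a1 at 0.21, Crispld1 at -0.12, Dkk1 at -1.28, Ibsp at -0.020, Jun at 0.57 and Phex at -1.62. The osteocyte median of -1.37 was the ratio of Dmp1 itself, a gene that all of these members were chosen to carry. With a margin of at least 2, bone matrix was at -0.073, immediate early genes at -0.20, Cdkn1a at 0.066 and Ptgs2 at 2.42. Without members holding genes of another set, bone matrix was at -0.091, immediate early genes at -0.17, mitochondrial genes at 0.58, osteocyte genes at 0.42, Cdkn1a at 0.23, Ddit4l at 0.027, Ptgs2 at 2.44 and Spp1 at -0.22.

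With every cell weighing the same, medians were 0.036 for bone matrix, 0.40 for collagen modification, 0.21 for mineralization, 0.48 for osteocyte genes, -0.012 for p53 targets, 0.40 for CDK inhibitors, 0.20 for endoplasmic reticulum genes, -0.26 for immediate early genes and 0.41 for glycolysis, with Bglap at 0.063, Bglap2 at 0.036, Cdkn1a at 0.40, Egr1 at -0.27, Fos at -0.17 and Inhba at 0.66. In thinned cells they were -0.14 for transcription factors, -0.032 for bone matrix, 0.38 for collagen modification, 0.66 for glycolysis, -0.34 for immediate early genes and 0.14 for mineralization, with Egr1 at -0.15, Fos at -0.085, Ifi27 at -0.26, Inhba at 0.22 and Slc13a5 at 0.16. With at least 20 UMIs p53 targets were at -0.078, and with at least 100 UMIs mineralization was at -0.26. Without the Veh cell with most UMIs, osteocyte genes were at 0.43 and Ptgs2 at 2.36. Without the cell with most UMIs of each gene, osteocyte genes were at 0.26, immediate early genes at 0.020, Inhba at 0.048 and Ptgs2 at 1.24. Apart from changes of construction named above, the cause was not tested.

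Limits are the single library of each condition, the shallow depth of the members (median 3830 and 3999 UMIs) and a few large cells that carry much of a sum.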
